A study of Mus musculus with 2 samples.

Results

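The genes described here are the miRNA genes with late registry numbers, from Mir1000 upwards, that gave reads in mouse C2C12 myotubes. They were chosen by name in the GENCODE M21 annotation and by reads: a number of 1000 or more and 10 or more reads on the gene's own strand, summed over both libraries. Of 2202 annotated miRNA genes, 649 carry such a number. The selection leaves out 13 of them by name or locus. Of the 636 that remain, 296 had no read in either library, 188 had 1 to 9 reads, and 152 had 10 or more. The read counts chose these 152 genes, so their levels are given as a description without a test.

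C2C12 is an established mouse myoblast line, taken from crush-injured thigh muscle of the C3H strain, and the cells had been differentiated for 72 h into myotubes. There was 1 group of 2 libraries, labelled as biological replicates 1 and 2 and made from separate samples of cells from the same donor line. No treatment, no mutation and no undifferentiated control is labelled, so the only comparison is between the 2 libraries. The libraries were made from small RNA with a stated size range of <30 (no unit given), and the deposited values are read counts per miRNA gene.

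Most miRNAs begin as hairpins in longer transcripts that Drosha and its partner Dgcr8 cut out in the nucleus and Dicer cuts again in the cytoplasm, and the mature strand then pairs with target mRNAs mainly through its seed, bases 2 to 8. The registry gave out numbers largely in order of discovery, so high numbers mostly stand for hairpins that were found by deep sequencing after the abundant and widely conserved ones had been named. Some of these hairpins are mirtrons, short introns whose ends are made by splicing and not by Drosha, and others lie within small nucleolar RNAs (snoRNAs), Cajal body RNAs (scaRNAs) or tRNAs, which have other work in modifying RNA or in translation.

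The mature sequences of the most abundant of these genes are shown first, because these 6 genes held 56.1% and 54.8% of all reads described here. They are from RefSeq on GRCm38.p6, written 5′ to 3′ with the seed in capitals. RefSeq gave a mature sequence for 143 of the 152 genes and none that matched Mir5099. For Mir3102 it also holds miR-3102-5p.2-5p and miR-3102-3p.2-3p, which are not printed.
miR-3068-5p: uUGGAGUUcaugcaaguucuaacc
miR-3068-3p: gGUGAAUUgcaguacuccaaca
miR-1983: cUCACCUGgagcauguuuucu
miR-3102-5p: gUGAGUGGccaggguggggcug
miR-3102-3p: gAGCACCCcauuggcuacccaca
miR-1839-5p: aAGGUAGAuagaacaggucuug
miR-7689-5p: cCGAGGCAgccuggcuuag
miR-7689-3p: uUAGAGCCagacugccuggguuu

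No pair of these sequences shares a seed. Over all 247 mature sequences of the 143 genes there were 241 distinct seeds, and 6 seeds occurred in 2 genes each. The deposited counts are per gene, so they do not say which arm of a hairpin gave the reads.

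The 2 libraries held 7581366 and 9865298 reads on the sense strand of miRNA genes, which were 49.4% and 53.5% of 15349205 and 18450359 reads in all. Levels are given as counts per 1000000 sense miRNA reads (CPM). At this depth 10 reads were 1.32 and 1.01 CPM in replicates 1 and 2, and a count of 0 allowed up to 3 reads, or 0.396 and 0.304 CPM. Reads without molecular identifiers are not independent molecules, so intervals and these limits cover counting error only. All 4 listed muscle markers had reads and summed to 355274 and 428236 CPM, of which Mir206 alone gave 340841 and 416794. The muscle genes Mir1a-1, Mir1a-2, Mir133a-1 and Mir133a-2 were not on the list. Their means were low, at 2.94, 3.02, 2.01 and 1.03 CPM. Markers of other cells summed to 89.4 and 179 CPM for 3 blood genes, 217 and 42.9 CPM for the endothelial Mir126a, 4.35 and 2.13 CPM for 5 epithelial genes, 96.6 and 106 CPM for 3 neuronal genes and 1.19 and 1.62 CPM for 2 liver and pancreas genes. Mir200a, Mir429, Mir124a-1 and Mir9-1 had no read. The part of other cells in the values below was not tested, and in bulk RNA fewer cells of a type and less RNA per cell cannot be told apart.

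Together the 152 genes gave 14461 reads in replicate 1 and 19997 in replicate 2. Their share of sense miRNA reads was 0.191% in replicate 1 (95% exact Clopper-Pearson interval 0.188% to 0.194%) and 0.203% in replicate 2 (0.200% to 0.206%), with a mean of 0.197% ± 0.00845 (SD, n = 2). The 234 earlier-numbered genes with 10 or more reads, those with a number under 1000, held 94.2% and 95.3%. The median late-numbered gene had a mean of 1.74 CPM and 31.5 reads in all, and the range ran from 0.553 to 262 CPM. The median earlier-numbered gene had 105 CPM. None of the late-numbered genes was among the 100 most abundant miRNA genes, and the highest, Mir3068, was the 107th. Reads that map to several places are left out of the deposited gene counts. Of the 152 late-numbered genes 8 (5.26%) share a run of 20 bases with another miRNA hairpin, beside 81 (34.6%) of the 234 earlier-numbered ones. How far this shifts the share, the ranks and the medians was not tested. At 2 CPM or more in both libraries there were 59 of the 152 genes (38.8%), beside 66.0% of the 415 miRNA genes of any name with 10 or more reads.

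**Figure D1:**
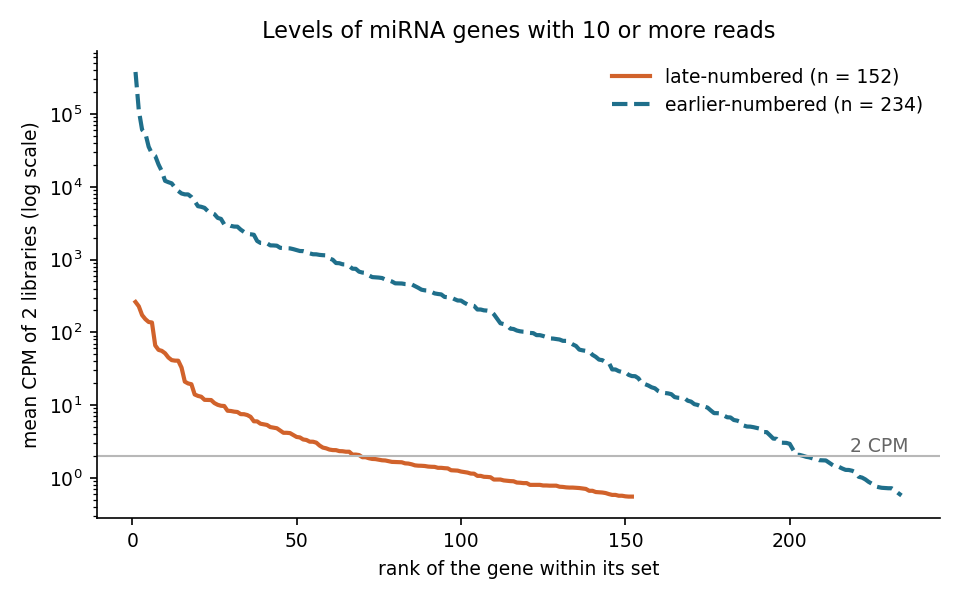
Mean CPM of 2 libraries (log scale) against rank for late-numbered (solid line, n = 152) and earlier-numbered (dashed line, n = 234) miRNA genes with 10 or more reads. The late-numbered curve starts at 262 CPM and crosses the grey line at 2 CPM well before its end, while the earlier-numbered curve starts at 378817 CPM (Mir206).

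Reads were concentrated in few of the late-numbered genes. The 20 most abundant held 83.3% of their reads in replicate 1 and 80.4% in replicate 2, while the other 132 shared 16.7% and 19.6%. By number, the 31 genes from 1000 to 1999 summed to 652 ± 71.8 CPM and the 30 from 3000 to 3999 to 563 ± 126 CPM. The 35 from 6000 to 6999 summed to 184 ± 23.2 CPM and the 35 from 7000 to 7999 to 194 ± 1.79 CPM (SD, n = 2 in each case). The share of annotated genes that reached 10 reads was 38.3% in the 1000s, 37.0% in the 3000s, 29.4% in the 5000s, 16.9% in the 6000s, 19.4% in the 7000s and 18.8% in the 8000s. None of the 4 annotated genes in the 2000s reached it.

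Mir3068 (chr12:87437679-87437757, minus strand, mm10) lies in an intron of Alkbh1, which encodes a nucleic acid demethylase. Here and below, the first of 2 values is that of replicate 1. Mir3068 had 193 and 330.2 CPM. The annotation also carries a snoRNA entry under the same name at this place. Mir5099 (chr12:36816205-36816278, plus strand), outside annotated genes, had 262 and 194 CPM. Replicate 2 was therefore the higher library for Mir3068 and the lower one for Mir5099, and the ranges of these 2 genes overlapped.

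Mir1983 (chr13:21896918-21897049, minus strand) had 178 and 168 CPM, with a mean of 173 ± 7.10 (SD, n = 2). RefSeq places an isoleucine tRNA gene, n-TItat14, over it. Mir3102 (chr7:100882306-100882409, minus strand) had 123 and 181 CPM and fills an intron of Arhgef17. Mir1839 (chr7:81529916-81529988, plus strand) had 172 and 105 CPM and carries a scaRNA entry of the same name inside the long non-coding RNA 2900076A07Rik. Mir7689 (chr5:36301570-36301628, plus strand) had 141 and 132 CPM and lies opposite to Sorcs2, a gene for a sortilin-family receptor. In this order each gene's range overlapped that of the next, while Mir1983 lay above Mir7689 in both libraries.

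A gap followed: Mir1981, the next gene, had 70.7 and 61.3 CPM, below both values of Mir7689. It fills an intron of Marc2, a gene for a mitochondrial reductase. Mir5121, which overlaps the snoRNA Snord33 and has its hairpin at the 5′ end of an intron, had 34.4 and 80.4 CPM. Mir6240 and Mir6236, both outside annotated genes, had 57.4 and 53.9 CPM and 37.9 and 65.2 CPM. Among the 20 most abundant genes, only the pairs Mir5099 and Mir1983, Mir7689 and Mir1981, and Mir1968 and Mir1249 stood next to each other in the order without overlapping ranges.

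Mir1306 overlaps coding sequence of Dgcr8, the RNA-binding partner of Drosha, and had 32.4 and 49.3 CPM. Mir5113 overlaps the 3′ UTR of Tnrc6b, a scaffold of the silencing complex, and had 15.0 and 24.6 CPM. Mir3061 overlaps the 3′ UTR of Ppp2ca, the catalytic subunit of protein phosphatase 2A, and had 50.3 and 39.9 CPM. Replicate 2 was the higher library for Mir1306 and Mir5113 and the lower one for Mir3061. Mir1968 in Grtp1 had 40.0 and 25.6 CPM, Mir1249 in 5031439G07Rik had 21.6 and 20.4 CPM, and Mir1941 in Gm35853 had 21.5 and 17.2 CPM. Mir8112, which overlaps the 5′ UTR of Krcc1, had 12.7 and 14.1 CPM. At least 20 consecutive bases of its hairpin recur in 6 other annotated miRNA hairpins, so its count is uncertain.

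**Figure D2:**
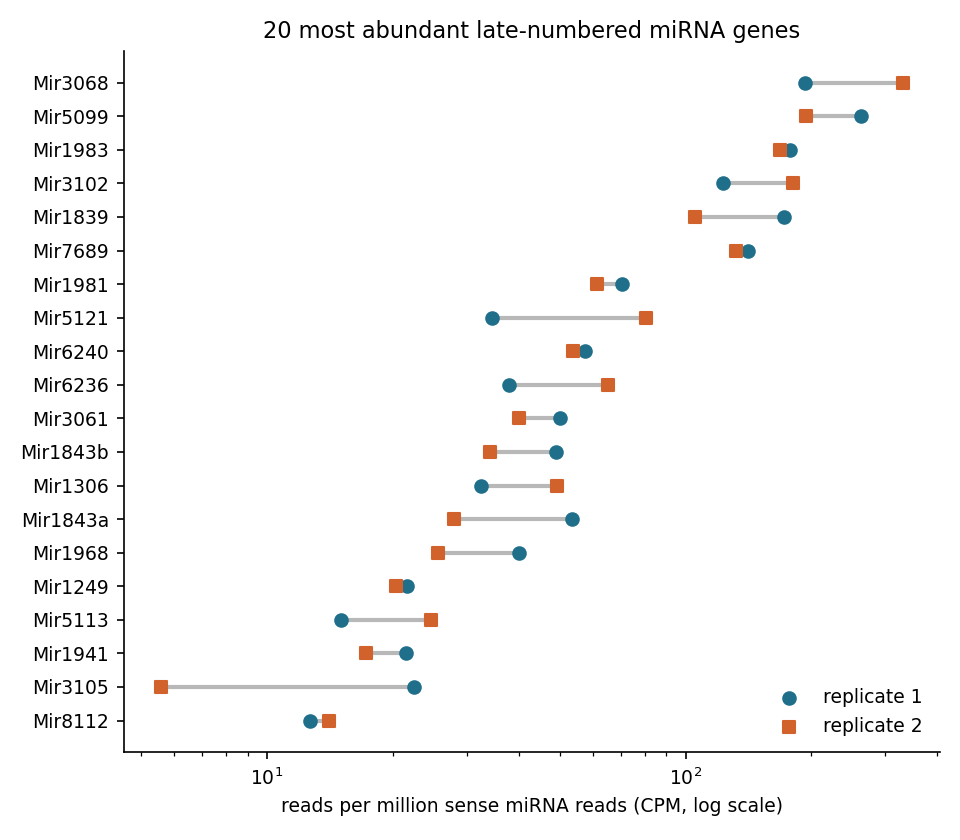
CPM (log scale) of the 20 most abundant late-numbered miRNA genes, circles for replicate 1 and squares for replicate 2, ordered by their mean. The first 6 genes lie between 105 and 330.2 CPM, and Mir3105 has the widest bar, from 22.4 to 5.58 CPM.

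The genes were then placed relative to introns, exons and other small RNAs, which did not enter the choice by number, reads and left-out names and locus. A hairpin with an end within 5 nt of an intron's end was called intron-end, and each gene was put in the first class that applied: overlap with another small RNA, both ends of an intron, 1 end of an intron, inside an intron, exon, opposite strand of a gene, or outside genes. The counts were 10, 9, 49, 45, 23, 6 and 10 of 152. For the 234 earlier-numbered genes with 10 or more reads they were 2, 1, 1, 101, 49, 17 and 63. Counted over all classes, 59 late-numbered genes (38.8%) had a hairpin at an intron end, against 2 earlier-numbered ones (0.855%). The late-numbered genes with fewer than 10 reads had 168 of 484 (34.7%) there, so the share at intron ends was close to that of the annotated late-numbered genes without enough reads. A protein-coding gene on the same strand hosted 129 (84.9%) of the late-numbered genes and 106 (45.3%) of the earlier-numbered ones. Another miRNA gene lay within 10000 bp of 12 (7.89%) and 125 (53.4%).

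**Figure D3:**
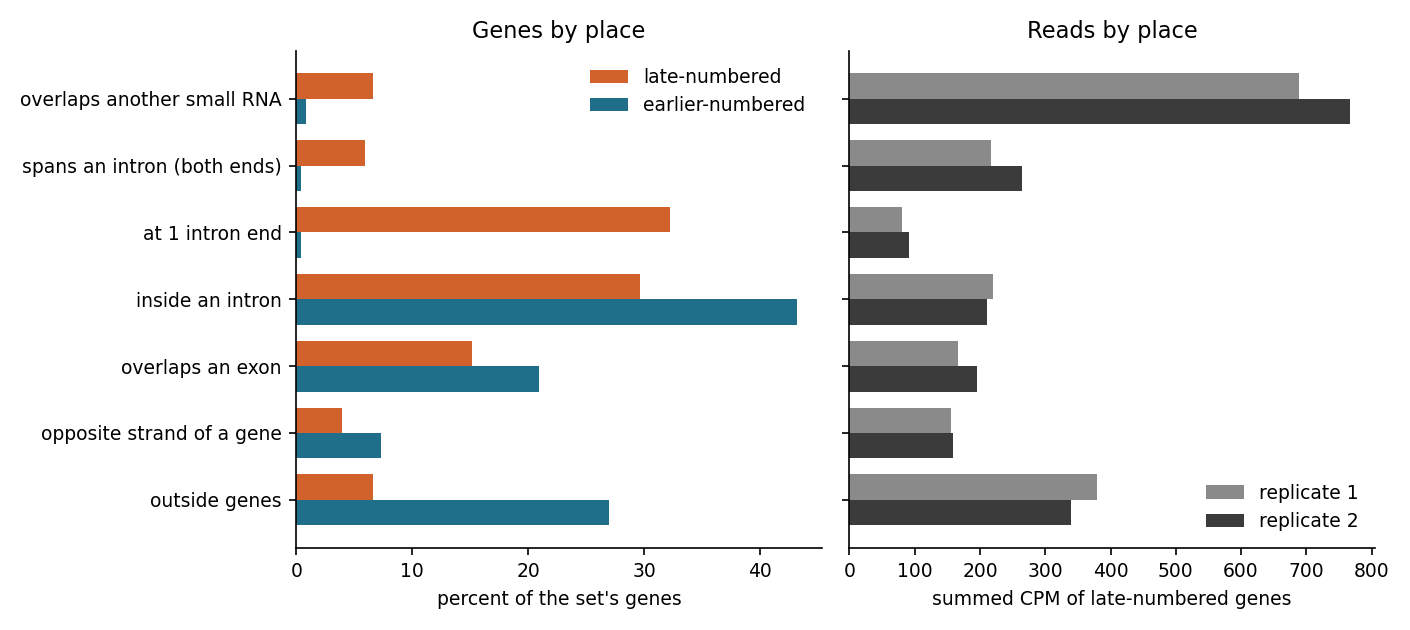
Left, percent of late-numbered (n = 152) and earlier-numbered (n = 234) miRNA genes with 10 or more reads in each class of genomic place. Right, summed CPM of the late-numbered genes per class in replicate 1 (light) and replicate 2 (dark). The class at 1 intron end holds 32.2% of the late-numbered genes but under 100 CPM, and the class overlapping another small RNA holds 6.58% of them and the tallest bars of the right panel.

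The 10 genes that overlap another small RNA gave 688 and 767 CPM in replicates 1 and 2, a mean of 728 ± 55.7 CPM (SD, n = 2), or 36.1% and 37.8% of all late-numbered reads. Besides Mir3068, Mir1983, Mir1839 and Mir5121 they are Mir1843b, Mir1843a, Mir1949, Mir6516, Mir3069 and Mir1291. Mir1843b overlaps Scarna3a within Cop1, a ubiquitin ligase gene, and had 48.9 and 34.2 CPM. Mir1843a overlaps Scarna3b within Dcaf5 and had 53.6 and 28.0 CPM. Both were higher in replicate 1. Mir1949, under a snoRNA entry of the same name, had 3.69 and 17.6 CPM. Mir6516, over the scaRNA Gm26083 in Snhg20, had 2.24 and 2.33 CPM, Mir3069, over Scarna13 in Snhg10, had 1.19 and 0.710 CPM, and Mir1291, over Snora34 in Kansl2, had 0.923 and 0.507 CPM. The counts do not tell reads of a mature miRNA from other pieces of the overlapping RNA.

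The 2 Mir1843 hairpins are shown because reads may not be told apart between them. They share a run of 23 bases, in capitals, and the whole of miR-1843b-5p lies within it. Reads that map to several places are left out of the deposited gene counts, so the counts of Mir1843a and Mir1843b are uncertain.
Mir1843a, chr12:80391613-80391677, minus strand: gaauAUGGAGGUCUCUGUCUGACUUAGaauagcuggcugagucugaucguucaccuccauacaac
Mir1843b, chr1:159340358-159340423, plus strand: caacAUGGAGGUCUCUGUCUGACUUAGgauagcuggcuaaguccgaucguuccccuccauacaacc

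The 9 genes whose hairpins reach both ends of an intron, the geometry of a mirtron, summed to 217 CPM in the first replicate and 265 in the second. Mir3102 and Mir1981 held most of this. Mir6944 in Dbn1, the gene of the actin-binding protein drebrin, had 9.23 and 7.50 CPM. Mir6923 lies in Myh3, the embryonic myosin heavy chain gene that differentiating muscle switches on, and had 4.48 and 7.50 CPM. Mir7018 in Hspg2, the perlecan gene, had 4.88 and 3.45 CPM. Mir1982 in Oaz1, Mir7068 in Cherp, Mir7091 in Dnase1l1 and Mir7070 in Fbxw9 had means between 0.847 and 1.47 CPM. The introns were 72 to 104 nt long.

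The RefSeq hairpins of these genes show the splice dinucleotides, printed in capitals. RefSeq held 7 of the 9 hairpins, and all 7 start with GU and end with AG, as introns do. The class was set by hairpin ends within 5 nt of both intron ends, so these bases largely follow from it.
Mir1981, chr1:184822407-184822488, minus strand: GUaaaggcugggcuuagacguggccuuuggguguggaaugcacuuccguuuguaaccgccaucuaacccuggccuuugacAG
Mir6944, chr13:55477681-55477776, minus strand: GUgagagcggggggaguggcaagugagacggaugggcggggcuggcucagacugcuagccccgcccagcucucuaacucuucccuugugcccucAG
Mir6923, chr11:67099804-67099875, plus strand: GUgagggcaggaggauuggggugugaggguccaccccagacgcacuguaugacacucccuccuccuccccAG
Mir7018, chr4:137538286-137538370, plus strand: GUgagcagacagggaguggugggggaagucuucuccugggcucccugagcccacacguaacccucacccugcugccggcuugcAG
Mir1982, chr10:80828797-80828870, plus strand: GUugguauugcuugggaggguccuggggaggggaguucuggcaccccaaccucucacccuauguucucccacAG

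Another 49 genes had a hairpin at 1 intron end, and together they gave only 80.3 and 90.5 CPM. The hairpin lay at the 3′ end of the intron, next to the splice acceptor, in 47 of all 152 genes and at the 5′ end in 3. Of the 45 RefSeq hairpins at a 3′ end alone, 42 end with AG and 2 start with GU. Hairpins at no intron end started with GU in 7 of 80 cases and ended with AG in 4. Those of earlier-numbered genes did so in 11 and 19 of 196. The class was set by the distance to the intron's end, so the difference in AG ends largely follows from it. Distances to intron ends were taken for every hairpin that overlaps an intron of a same-strand transcript, some of them classed above as exonic or over another small RNA. The hairpin's 3′ end was 0 to 5 nt from the intron's 3′ end for 56 of 120 such late-numbered genes and for 2 of 124 earlier-numbered ones.

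**Figure D4:**
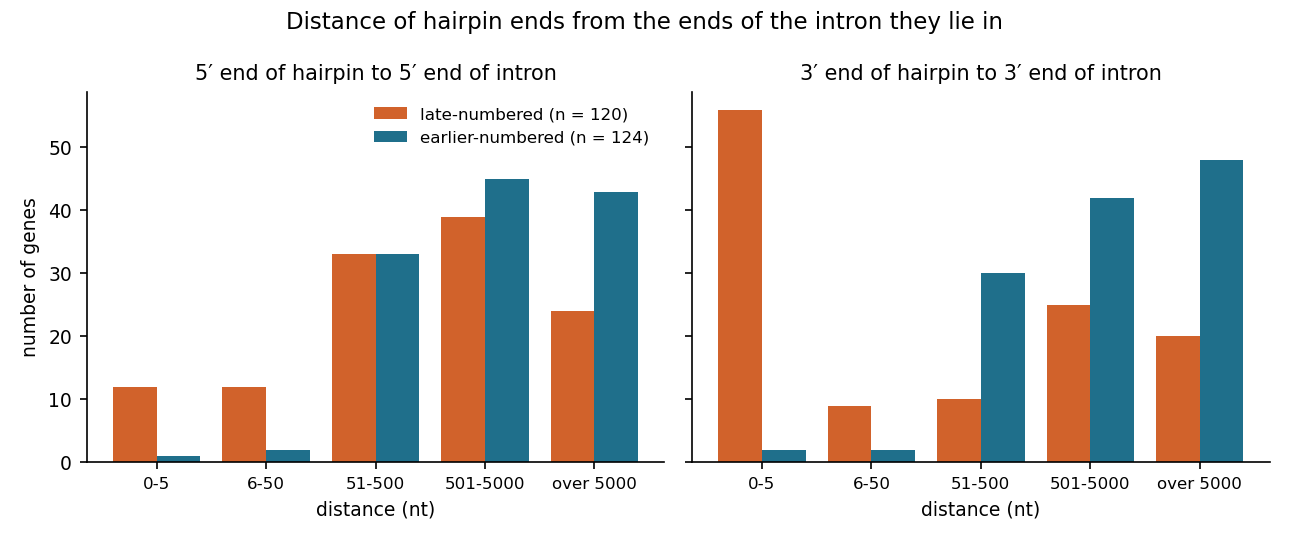
Number of genes by distance in nt from hairpin end to intron end, 5′ ends on the left and 3′ ends on the right. Shown are late-numbered (n = 120) and earlier-numbered (n = 124) miRNA genes that overlap an intron of a same-strand transcript, whatever their class of place. At 3′ ends the bin from 0 to 5 nt holds 56 late-numbered and 2 earlier-numbered genes, and at 5′ ends it holds 12 and 1.

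The annotated 3p arms of these genes lie at the same end, which largely follows from how the class was set. Of 54 mature 3p sequences of genes at a 3′ intron end, 40 end exactly at the last base of the intron. The same 40 end in AG, and 51 end within 3 bases of the last base. These ends are those of the annotation, and no reads enter them. A few are printed with their last 2 bases in capitals: those of Dmpk, the kinase gene of myotonic dystrophy, of Actg1, which encodes gamma actin, of Tkt, which encodes transketolase, and of Rgs12, a regulator of G protein signalling.
miR-3100-3p (Dmpk): cugugacacacccgcucccAG
miR-6935-3p (Actg1): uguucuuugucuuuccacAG
miR-3076-3p (Tkt): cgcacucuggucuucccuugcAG
miR-3097-3p (Rgs12): cucagaccuuucuaccugucAG

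These 4 sequences were picked for their hosts after the values had been seen. Mir3100 had 7.12 and 7.91 CPM, Mir3076 had 5.01 and 4.97 CPM and Mir3097 had 5.67 and 6.28 CPM. Their log2 ratios of replicate 2 over replicate 1 were between 0.01 and 0.18. Mir6935 had 1.32 and 3.35 CPM, with replicate 2 the higher.

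In the 23 genes classed as exonic, hairpins overlapped coding sequence in 13 cases, a 5′ UTR in 7, a 3′ UTR in 7 and an exon of a non-coding transcript in 5, and a hairpin could overlap several of these. The 45 genes inside introns summed to 221 and 211 CPM, the 23 exonic genes to 166 and 196 CPM, the 6 opposite to a gene to 155 and 158 CPM, and the 10 outside genes to 380.0 and 340.2 CPM. Mir7689 gave most of the reads opposite to genes, and Mir5099 most of those outside genes. The median GC content of the hairpins was 56.1%, against 48.7% in the earlier-numbered genes, and their median length was 75.5 against 84.0 nt.

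The seed of Mir1943 and Mir7016 is that of an abundant miRNA gene. Their 5p arms share the seed AGGGAGG with each other and with miR-149-3p, whose gene Mir149 had 7740 and 7995 CPM, counted over both its arms.
miR-1943-5p: aAGGGAGGaucugggcaccugga
miR-7016-5p: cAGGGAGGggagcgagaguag

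Mir1943, in an intron of Tmem184b, had 10.6 and 15.5 CPM, and Mir7016, at an intron end of Tmem39b, had 0.923 and 0.405 CPM. They are the only 2 of the late-numbered genes that share a seed with 1 of the 20 most abundant earlier-numbered genes, and 15 share a seed with an earlier-numbered gene of any level. A further pair, miR-7018-3p and miR-7068-3p, share the seed CACCCUG and are both at intron ends.

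Each gene's reads in the 2 libraries were compared by an exact binomial test, two-sided and on TMM-scaled library sizes, with p-values adjusted by Benjamini-Hochberg over all 415 miRNA genes with 10 or more reads. The test is conditional on the summed reads that chose the genes. It compares these 2 libraries and not conditions, and it covers counting error only, while the biological coefficient of variation between them was 0.435 over 274 genes. Of the 152 late-numbered genes 38 (25.0%) differed at an adjusted p below 0.05, where 55.7% of all tested genes did. Of the 38, 26 were higher in replicate 2 (17.1% of the 152 genes, beside 25.3% of all tested genes) and 12 in replicate 1 (7.89%, beside 30.4%). With TMM factors from genes with 10 or more reads 29 late-numbered genes were higher in replicate 2 and 9 in replicate 1, beside 28.7% and 27.2% of all tested genes (55.9% called in all).

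Depth differs between these sets. Among genes with 100 or more reads, 22 of 38 late-numbered genes (57.9%) and 200 of all 240 (83.3%) differed. With 10 to 99 reads 16 of 114 (14.0%) and 31 of all 175 (17.7%) did. At all depths together, 41 late-numbered genes (27.0%) were 2-fold or more apart, beside 28.0% of all tested genes. Of these 41, 26 were higher in replicate 2 (17.1%, beside 11.3%) and 15 in replicate 1 (9.87%, beside 16.6%). With 100 or more reads 5 of 38 late-numbered genes (13.2%) were 2-fold or more apart, beside 24.2% of all 240. With 10 to 99 reads 36 of 114 (31.6%) were, beside 33.1% of all 175. The median log2 ratio of replicate 2 over replicate 1 was 0.18 in the late-numbered genes and -0.02 over all tested genes, and the median absolute log2 ratio was 0.64 and 0.61.

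**Figure D5:**
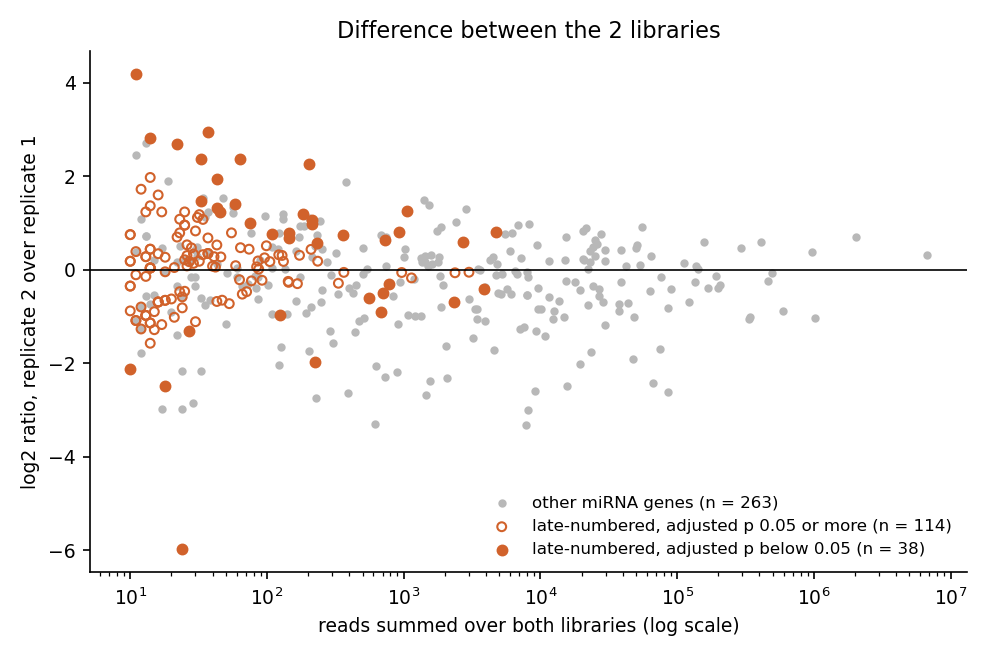
Log2 ratio of replicate 2 over replicate 1 against reads summed over both libraries (log scale) for the 415 tested miRNA genes, with late-numbered genes in colour (filled, adjusted p below 0.05, n = 38) and others in grey (n = 263). Late-numbered genes lie mostly at the left, below 1000 reads, and 26 of the 38 filled points lie above 0.

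A mean of 2 CPM or more was reached by 69 late-numbered genes, of which 28 (40.6%) differed, beside 72.7% of the 293 tested genes of any name at that level. Of the 69, 20 (29.0%) were higher in replicate 2, beside 32.4%, and 8 (11.6%) in replicate 1, beside 40.3%. Among the 28, Mir5100 had the largest ratio towards replicate 2. It had 1.06 and 5.58 CPM, a log2 ratio of 2.36 (exact binomial test, adjusted p = 3.9e-07). Mir1949, the gene under a snoRNA entry, followed with 3.69 and 17.6 CPM and a log2 ratio of 2.26 (adjusted p = 1.5e-19, same exact test). Mir7680 had 0.923 and 3.65 CPM and a log2 ratio of 1.93. Mir3081, in the gene of the hedgehog co-receptor Boc, had 1.71 and 4.56 CPM and a log2 ratio of 1.40, and Mir6935 in Actg1 a log2 ratio of 1.32. In each of these 5 genes the lower library was under 4 CPM.

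Towards replicate 1 the largest ratio among the same 28 genes was that of Mir3105 in Shank2, the gene of a synaptic scaffold protein. It had 22.4 and 5.58 CPM, a log2 ratio of -1.97 (exact binomial test, adjusted p = 2.6e-21). Mir1955 had 10.02 and 4.97 CPM, a log2 ratio of -0.98. The log2 ratios of Mir1843a, Mir1839 and Mir1968 were -0.91, -0.68 and -0.61. The 2 genes of the scaRNA-overlapping pair and Mir1839, which also overlaps a scaRNA entry, were all higher in replicate 1, while Mir3068, Mir5121 and Mir1949, which overlap snoRNA entries, were higher in replicate 2. These 6 differed by the exact binomial test, with adjusted p from 9.3e-74 for Mir3068 to 1.9e-05 for Mir1843b. Mir6516 and Mir3069, over scaRNAs, Mir1291, over a snoRNA, and Mir1983, over a tRNA, did not differ by that test (adjusted p between 0.42 and 0.92), which does not show them equal. The grouping by kind of small RNA was seen after the values and was not tested.

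Among the 20 most abundant genes the libraries were closest for Mir1983, Mir7689, Mir6240 and Mir1249, whose log2 ratios were -0.05, -0.07, -0.06 and -0.06. None of the 4 differed by the exact binomial test (adjusted p between 0.37 and 0.80), which does not show them equal. Their sign turned under another scaling, with log2 ratios of 0.032 to 0.044.

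In 2 of the genes a library had no read. Mir3066, in Nol10, had 24 reads in replicate 1 and 0 in replicate 2 (exact binomial test, adjusted p = 7.7e-09). It was 10.2-fold higher in replicate 1 when the 0 is set at 3 reads of that library. Mir7024, in Nelfa, had 0 reads in replicate 1 and 11 in replicate 2 (exact binomial test, adjusted p = 0.0072). With the same setting it was 2.88-fold higher in replicate 2. These folds take the reads of the other library as exact, so they are not lower bounds.

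Of 13 listed genes whose number is shared with a human miRNA, 11 are annotated, 7 had a read and 5 had 10 or more. They are Mir1306, Mir1249, Mir3064, Mir1251 and Mir1291. Mir3064, at an intron end of the RNA helicase gene Ddx5, had 2.37 and 2.84 CPM. Mir1251, in the long non-coding RNA gene Rmst, had 3 reads in replicate 1 and 34 in replicate 2. Of the 5, Mir1306 and Mir1251 differed, both higher in replicate 2, where 55.7% of all tested genes differed and 25.3% were higher in replicate 2. The median log2 ratio of the 5 was 0.27, beside -0.02 over all tested genes.

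Of 14 listed genes reputed to be pieces of other small RNAs, 10 are annotated and 7 had 10 or more reads: Mir5099, Mir1983, Mir1839, Mir6240, Mir6236, Mir5100 and Mir1291. They gave 709 and 592 CPM, a mean of 651 ± 83.1 CPM (SD, n = 2). Of the 7, 4 differed, 2 in each direction, where 55.7% of all tested genes did, and their median log2 ratio was -0.06, beside -0.02 over all tested genes. Mir1195, Mir1957a and Mir1957b had no read in either library.

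Of 7 listed genes reputed to be mirtrons, 6 are annotated and 5 had 10 or more reads: Mir3102, Mir1981, Mir3097, Mir5132 and Mir1982. They gave 202 and 253 CPM, and their median log2 ratio was 0.30, beside -0.02 over all tested genes. Of the 5, only Mir3102 differed (55.7% of all tested genes did), with a log2 ratio of 0.59 (exact binomial test, adjusted p = 3.7e-24). Mir3103 had 0 and 6 reads and so fell short of 10. By coordinates Mir3102, Mir1981 and Mir1982 reached both intron ends. Mir3097 reached the 3′ end alone, of an intron of 709 nt. Mir5132 overlapped exonic sequence of Irak1, a kinase gene of Toll-like receptor signalling. An overlap of any length was counted as exonic, so this class does not place the whole hairpin in an exon.

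At the edge of the selection, 8 genes had exactly 10 reads: Mir1191, Mir5623, Mir6922, Mir6928, Mir7002, Mir7021, Mir7032 and Mir7212. Another 11 had 9 reads and were left out: Mir1932, Mir1947, Mir6901, Mir6919, Mir6958, Mir6975, Mir6997, Mir7042, Mir7071, Mir7687 and Mir8094. The nearest genes on both sides of the limit thus differed by 1 read.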

How the data were processed

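Small RNA reads from 2 libraries of differentiated C2C12 cells (1 group of 2 biological replicates) were analysed. The deposited values are whole-number read counts per miRNA gene, made by the authors on mm10, per the labels. As for the aligner, counting program and read filters, each is not given in the sources used. Counts on the gene's own strand were used. The summary lines (unmapped, multimapping, no-feature, ambiguous) stayed out of library sizes and tests, so sense miRNA reads were 49.4% and 53.5% of all reads. Genes were named and placed with GENCODE M21 on GRCm38, and all coordinates are 1-based. Sequences are from RefSeq (GRCm38.p6).

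TMM factors (edgeR 4.0.16, R 4.3.3) were computed from all genes, replacing factors from genes with 10 or more reads after the results of those had been seen. Per-gene exact binomial tests (scipy 1.17.1, Python 3.11.15) were adjusted over 415 genes with 10 or more reads and had been tested on simulated data. The simulated counts held counting error alone. They cannot show how the tests behave with variation between replicates. Log2 ratios used a pseudocount of 0.5 reads. Edge-of-intron calls used 5 nt and skipped retained-intron transcripts. The separate cell samples give 2 replicates, and p-values measure the difference between these libraries only.

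The genes and lists were chosen with earlier results of these data known. Named genes are the 20 highest by mean CPM, the 5 largest ratios in each direction among those that differed with a mean of 2 CPM or more, overlaps with other small RNAs, mirtron geometry, shared seeds with the 20 most abundant earlier-numbered genes, the genes at the 10-read limit, and 3 lists. Alternatives changed the scaling (including DESeq2 1.42.0 size factors), strand, read minimum, denominator, detection threshold and pseudocount.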

Additional observations from a re-analysis of the deposited data

Results flagged for a closer look

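Reads on the strand opposite to the late-numbered genes, which no comparison above uses, were 15 in replicate 1 and 21 in replicate 2, over 11 genes. They were looked at because they had not been analysed. Mir7654 had 4 and 8 of them and Mir1941, which lies opposite to Krt80, had 5 and 1. With 2 libraries and 1 group, a library far from the others or a difference between groups could not be looked for.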

How the results depend on the processing

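The number of late-numbered genes that differed between the libraries was 38, beside 231 of all 415 tested genes. It stayed between 32 and 39 under the other scalings, the strand-ignoring count and test minimums of 1 and 30 reads. Of all tested genes, 230 to 234 of 415 differed under the other scalings and 215 of 396 when strand was ignored. With a minimum of 1 read 221 of 708 differed, and with 30 reads 222 of 311. The read minimum sets which genes are tested, so these counts have different bases. The number of late-numbered genes 2-fold or more apart was 41 (27.0%, beside 28.0% of all tested genes) and stayed between 33 and 45. The share of all tested genes is given for the main setting only. The summed share of 0.197% became 0.101% of all reads of the library, 0.318% of sense reads without Mir206, and 0.225% when strand was ignored. Ignoring strand hardly changed the reads of the late-numbered genes, from 14461 and 19997 to 14476 and 20018. The total over all miRNA genes fell from 7581366 and 9865298 to 6839587 and 8380107. Without either replicate the summed share ran from 0.191% to 0.203%. The 59 genes at 2 CPM in both libraries became 89 at 1 CPM and 36 at 5 CPM, and 63 to 77 without either replicate. TMM factors from genes with 10 or more reads were computed first and then replaced by those from all genes, so they stand here as an alternative added after seeing the data. They turned the log2 ratios of Mir1983 (0.044), Mir7689 (0.032), Mir6240 (0.038) and Mir1249 (0.040), none of which differed, and took Mir3061 above the threshold (-0.20, adjusted p = 0.086). With these factors 29 late-numbered genes were higher in replicate 2 and 9 in replicate 1, beside 28.7% and 27.2% of all 415 tested genes, and the median log2 ratio of all tested genes moved from -0.02 to 0.08. With library totals Mir1981 passed the threshold (-0.21, adjusted p = 0.031). The other 124 of 130 values of the 26 named genes kept their direction and their side of the threshold. No paired analysis was possible because there is only 1 group. With 10 to 99 reads 14.0% of the late-numbered genes differed, beside 17.7% of all tested genes at that depth.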
